A study of Mus musculus with 4 samples.

Results

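The 35 genes described here act in the unfolded protein response and the integrated stress response, and all 35 were found by symbol among the 27998 genes of the deposited count tables. They were followed in single cells of mouse inner ear organoids, 3D cultures grown from embryonic stem cells. The wild-type (WT) organoids came from R1/E cells (129X1x129S1 strain) and the knockout (KO) organoids from the Tmprss3KO-GFPKI line, in which the protease gene Tmprss3 carries a GFP insertion. Both lines were sampled at day 25 and day 35 and dissociated the same way with TrypLE, and each of the 4 groups is 1 library, so that nothing below has a replicate or a test. The labels do not say how many organoids or independent clones entered a library.

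A cell was kept if 500 or more genes were detected in it and its mitochondrial UMIs (unique molecular identifiers, 1 per captured RNA molecule) were no more than 10%. This left 9768 WT and 11190 KO cells at day 25, and 8166 WT and 6729 KO cells at day 35. Median depth was 6166.5 and 6371 UMIs per cell at day 25, and lower at day 35, with 3089 in WT and 4420 in KO. The mitochondrial limit removed 1081 barcodes of WT at day 35, against 117 to 348 in the other libraries. Any pair of libraries shared 76 to 142 barcode sequences. Tmprss3 itself had 18 (WT) and 7 (KO) UMIs at day 25, then 8 (WT) and 5 (KO), too few to check the genotype labels. Levels are given in CPM, the UMIs of a gene scaled to 1000000 UMIs of all genes in the cells summed. Intervals are at the 95% level and exact, but they hold counting error and not the spread between organoid cultures.

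Proteins of the secretory pathway fold in the endoplasmic reticulum, and when unfolded proteins gather there the membrane sensors ATF6, IRE1 (Ern1) and PERK (Eif2ak3) signal to the nucleus. ATF6 and the IRE1 product XBP1 switch on chaperones, disulfide enzymes and the degradation machinery. PERK is also 1 of the kinases of the integrated stress response, which slows translation through the initiation factor eIF2 while the factor ATF4 is translated and activates genes of amino acid supply and of the recovery from stress. FGF21 and GDF15 are hormones that stressed tissues release, FGF21 from liver and muscle among others.

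The libraries of the 2 days lay further apart in these genes than those of the 2 genotypes. Summed over the 35 genes, the level was 5212 (WT) and 5131 (KO) CPM at day 25, and 8737 in WT and 8213 in KO at day 35. Both day 35 libraries were thus well above both day 25 libraries. At day 35 over day 25, 9 of the 35 genes were at least 2-fold higher in WT, where 7.96% of all genes tested were, and 3 were at least 2-fold lower, against 14.7% of all genes. In KO, 8 were at least 2-fold higher, against 13% of all genes, and 1 was lower, against 8.31%. The median log2 ratio of the 35 genes was 0.46 in each genotype, while that of all genes was -0.14 in WT and 0.14 in KO. Between genotypes, no member was 2-fold apart at day 25, against 2.67% of all genes higher in KO and 5.06% lower. At day 35 no member was 2-fold higher in KO, against 10.3% of all genes, and 1, Fgf21, was 2-fold lower, against 3.05%. The median of the 35 genes for KO over WT was -0.01 at day 25 and 0.09 at day 35, and that of all genes -0.04 and 0.23. Each library enters 1 comparison of days and 1 of genotypes, so that these comparisons share libraries. Scaling by median-ratio size factors in place of total UMIs shifted every log2 ratio of KO over WT at day 35 by -0.22, which put 8 in place of 20 members above 0 and their median at -0.13.

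**Figure D1:**
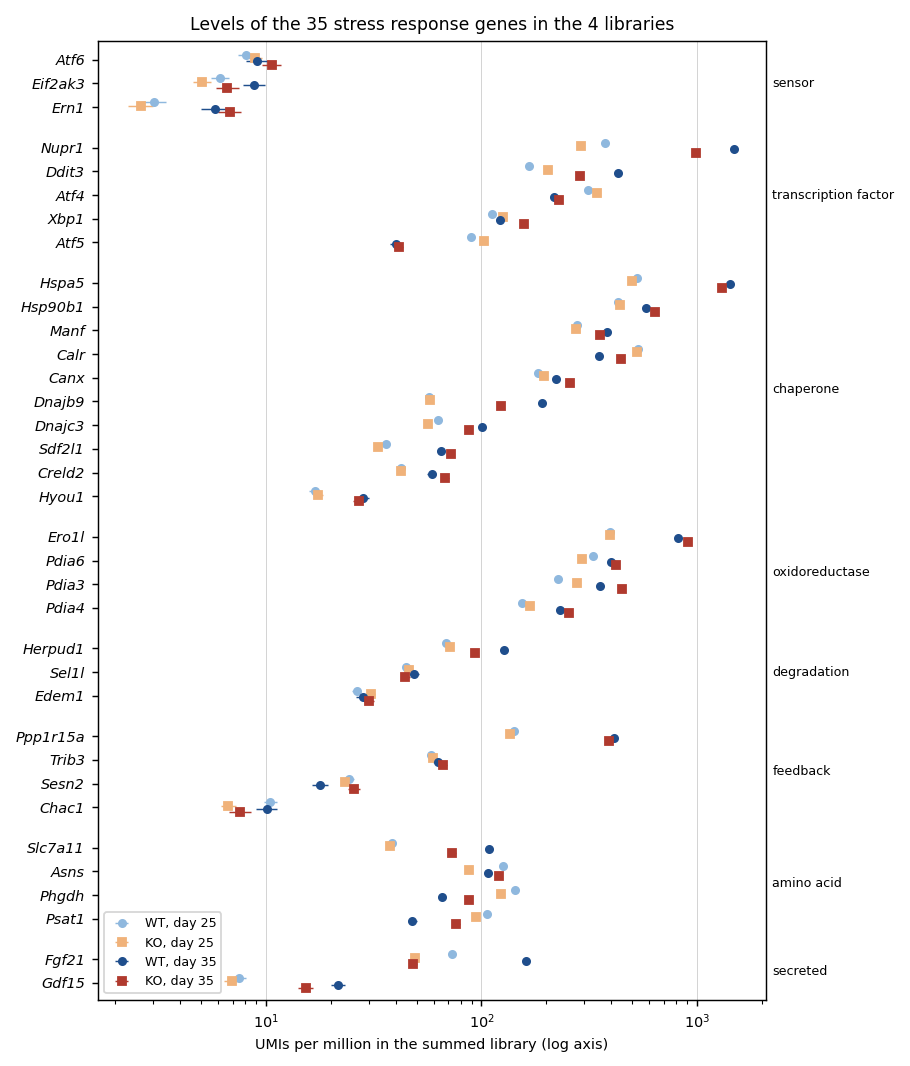
Levels of the 35 stress response genes in the summed cells of each library, in CPM on a log axis, grouped by role, with exact 95% counting intervals. Hspa5, Nupr1, Ppp1r15a and Ero1l lie to the right at day 35 in both genotypes, Atf4 and Atf5 to the left, and Fgf21 stands apart in WT at day 35 alone, at 161.

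The 3 sensors were sparsely counted. Ern1, the kinase and nuclease that splices Xbp1 RNA, was measured at 3.01 (WT) and 2.63 (KO) CPM at day 25, and at 5.83 and 6.79 at day 35. Both day 35 libraries were above both day 25 libraries, by a log2 ratio of 0.95 (0.66 to 1.24) in WT and 1.37 in KO. Eif2ak3 ranged from 5.07 to 8.84 and Atf6 from 8.07 to 10.6 across the libraries, and neither reached 2-fold in any comparison. Within marker-gated cell types Ern1 and Eif2ak3 had enough UMIs in 1 or 2 gates of a comparison, and Atf6 in 4 to 7, where its log2 ratios lay between -0.82 and 0.59.

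Among the transcription factors, Nupr1 and Ddit3 were higher at day 35 and Atf4 and Atf5 lower. Nupr1, a small chromatin-associated stress protein, stood at 373 and 290 CPM at day 25 (WT, KO) and at 1491 (WT) and 984 (KO) at day 35. Its log2 ratio of the days was 2.00 in WT and 1.76 in KO, and KO was the lower genotype on both days (log2 -0.36 and -0.60). Ddit3, which encodes the stress factor CHOP, was counted at 167 (WT) and 203 (KO) at day 25, and at 428 (WT) and 287 (KO) at day 35. The WT library of day 35 was the highest, and the change with day was 1.36 in WT and 0.50 in KO on the log2 scale. For KO over WT, Ddit3 had a log2 ratio of 0.29 (0.25 to 0.32) at day 25 and of -0.58 (-0.61 to -0.54) at day 35, a reversal that was not tested.

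Atf4, the central factor of the integrated stress response, which is controlled mainly at translation, went the other way. Its RNA was at 313 and 342 CPM at day 25 in WT and KO, and at 217 and 228 at day 35. Both day 35 libraries were lower, by log2 ratios of -0.53 and -0.59. Atf5, a related factor, was at 89.3 and 102.7 at day 25 and at 40.0 and 41.3 at day 35 in the same order. It was the only member at least 2-fold lower at day 35 in both genotypes, at -1.16 in WT and -1.31 in KO. Xbp1 ranged from 112 to 158 and was highest in KO at day 35.

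The chaperones were mostly higher at day 35, 9 of 10 in each genotype, with Calr as the exception. Hspa5, which encodes BiP, the main endoplasmic reticulum chaperone and a standard readout of the unfolded protein response, was at 529 and 497 CPM at day 25 in WT and KO and at 1418 and 1301 at day 35. The genotypes lay close together on each day, and the days were 1.42 (WT) and 1.39 (KO) apart on the log2 scale. Dnajb9, an Hsp40-type partner of BiP that restrains IRE1, was at 57.4 in both day 25 libraries, at 191 in WT and at 124 in KO at day 35. The log2 change with day was 1.73 in WT and 1.11 in KO, and KO was below WT at day 35 by a log2 ratio of -0.62. Sdf2l1, a cofactor of the BiP chaperone cycle, was at 36.1 (WT) and 33.0 (KO) on the earlier day and at 64.8 (WT) and 72.0 (KO) on the later one. Its log2 ratio of the days was 0.85 in WT and 1.13 in KO.

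Calr, the calcium-binding lectin chaperone calreticulin, was instead at 533 and 528 CPM at day 25 and at 352 (WT) and 444 (KO) at day 35. The day 35 libraries were lower by log2 ratios of -0.60 in WT and -0.25 in KO. The other 6 chaperones (Hsp90b1, Hyou1, Canx, Dnajc3, Manf and Creld2) were higher at day 35 by log2 ratios between 0.27 and 0.74, none of them 2-fold. The wider list of 40 other folding, degradation and translocation genes of the endoplasmic reticulum had none at 2-fold in any of the 4 comparisons. Its median log2 ratio with day was 0.21 in WT and 0.16 in KO.

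The promoters of 2 chaperones are printed because a response element shared by part of this group is visible in them. Of the 35 genes, 32 matched RefSeq promoters of build GRCm38.p6, with 35 promoters in all, each running from 250 bases before to 50 bases after the start of transcription. Capitals mark matches to the endoplasmic reticulum stress element, searched on both strands as CCAAT and CCACG with 9 bases of any kind between them, and to TGACGTG, the core of a second element of the unfolded protein response.
Hspa5 (chr2:34771840-34772139, plus strand): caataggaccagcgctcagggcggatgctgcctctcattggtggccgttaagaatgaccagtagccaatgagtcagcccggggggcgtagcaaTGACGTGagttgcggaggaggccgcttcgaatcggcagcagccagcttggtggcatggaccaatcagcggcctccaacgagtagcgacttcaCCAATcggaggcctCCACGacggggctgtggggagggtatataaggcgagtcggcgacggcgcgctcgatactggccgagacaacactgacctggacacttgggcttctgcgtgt
Hsp90b1 (chr10:86705395-86705694, minus strand): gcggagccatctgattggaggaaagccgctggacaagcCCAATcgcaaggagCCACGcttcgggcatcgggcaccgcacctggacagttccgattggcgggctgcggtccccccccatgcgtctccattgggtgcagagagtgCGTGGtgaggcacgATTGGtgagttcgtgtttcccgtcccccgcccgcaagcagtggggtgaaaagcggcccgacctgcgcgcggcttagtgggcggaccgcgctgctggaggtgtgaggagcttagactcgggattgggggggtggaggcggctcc
In Hspa5 the first element began 65 bases before the start and TGACGTG 157 bases before it, while Hsp90b1 held 2 matches to the first, on opposite strands, from 212 and 107 bases before the start. Matches to the stress element stood in 20% of the members' promoters (those of Calr, Canx, Creld2, Dnajc3, Hsp90b1, Hspa5 and Pdia6) and in 0.119% of the 32851 promoters of the table. Of the other chaperones, Dnajb9 and Sdf2l1 had no match to the stress element, and Hyou1 and Manf had no matched promoter. TGACGTG was found in the Hspa5 promoter alone among the members and in 2.01% of all promoters. These genes did not move alike. The 7 with the stress element had log2 ratios of day from -0.60 (Calr) to 1.42 (Hspa5) in WT, with a median of 0.43. In the 18 matched members with neither the stress element nor the ATF4 element described further below, the median was 0.56. A match of letters is not a measurement of binding.

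The oxidoreductases form disulfide bonds in the folding compartment, and all 4 were above 0 for day 35 over day 25 in both genotypes. Ero1l, the oxidase that recharges the protein disulfide isomerases, was at 394 CPM in each day 25 library, at 814 in WT and at 911 in KO at day 35. The days were 1.05 (WT) and 1.21 (KO) apart on the log2 scale, and the genotypes nearly level. Pdia3, Pdia4 and Pdia6 had log2 ratios of day between 0.26 and 0.70. Of the degradation genes, Herpud1, a membrane protein of the degradation complex, was at 68.6 and 71.8 at day 25 and at 128 in WT and 92.9 in KO at day 35. Sel1l and Edem1, further parts of that pathway, stayed within 0.12 of 0 on the log2 scale with day in both genotypes.

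The feedback genes of the integrated stress response were split. Ppp1r15a (GADD34), which brings a phosphatase to eIF2 and so restores translation, was at 141 and 136 CPM at day 25 in WT and KO and at 412 and 389 at day 35. Its change with day was 1.54 in WT and 1.52 in KO on the log2 scale, and the genotypes were close on each day. Trib3, a pseudokinase induced by ATF4 and CHOP, ranged only from 58.2 to 66.6 over the 4 libraries. Chac1, a glutathione-degrading enzyme induced by ATF4, ranged from 6.70 to 10.5, lower in KO on both days (log2 -0.65 and -0.42). Sesn2, a stress-induced regulator of mTORC1, ranged from 17.8 to 25.7 and was lowest in WT at day 35.

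**Figure D2:**
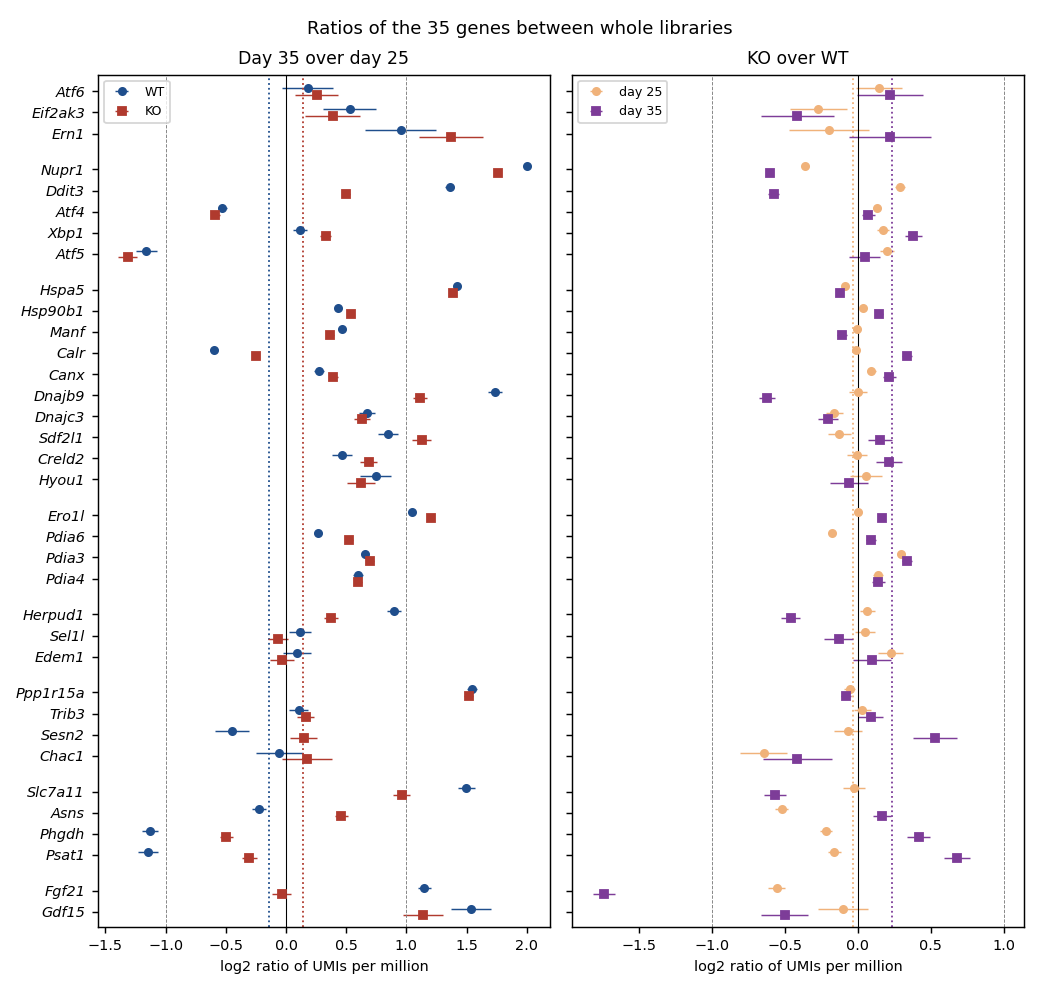
Log2 ratios of each of the 35 genes between whole libraries, with exact 95% counting intervals, for day 35 over day 25 (left) and KO over WT (right). Dashed lines mark 2-fold and dotted lines the median of all genes in that comparison. Fgf21 is the lone gene past 2-fold in the right panel, at -1.74 for day 35.

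The 4 genes of amino acid supply are classical ATF4 targets, and 3 of them were lower at day 35 in WT. Psat1, an enzyme of serine synthesis, was at 105.7 (WT) and 94.5 (KO) CPM at day 25 and at 47.8 (WT) and 76.5 (KO) at day 35. WT at day 35 was the lowest library, at a log2 ratio of day of -1.14, against -0.30 in KO. Phgdh, the first enzyme of that pathway, was at 143 (WT) and 123 (KO) at day 25 and at 65.6 and 87.5 at day 35, again lowest in WT at day 35 (-1.13, against -0.49 in KO). Asns, asparagine synthetase, was at 126 (WT) and 87.7 (KO) at day 25, then at 108 (WT) and 121 (KO). Its lowest library was KO at day 25.

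Part of the KO values at day 35 came from a small population. In that library 312 cells, 4.64% of those kept, passed the gate for pluripotency markers (Pou5f1, Dppa5a, Utf1 and others), against 12 WT and 2 KO cells on the earlier day and 0 WT cells on the later one. They held 13.2% of the UMIs of the library but 38.7% of its Psat1, 27.8% of its Asns and 20.8% of its Phgdh UMIs. Without them the KO over WT log2 ratio at day 35 went from 0.68 to 0.18 for Psat1, from 0.42 to 0.28 for Phgdh, and from 0.16 to -0.10 for Asns. The same ratio also changed sign for Hspa5, from -0.12 to 0.03, and for Ppp1r15a, from -0.08 to 0.11, both with counting intervals away from 0 before and after.

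Slc7a11, the cystine importer that feeds glutathione synthesis, differed from the other 3 amino acid genes. It was at 38.4 and 37.6 CPM at day 25 and at 109 in WT and 73.2 in KO at day 35. Both later libraries were higher, by log2 ratios with intervals of 1.43 to 1.57 in WT and 0.89 to 1.03 in KO. Slc7a11 is also a target of the oxidative stress factor NRF2, and in a list of 8 other NRF2 targets all 8 were above 0 with day in both genotypes, with medians of 0.68 and 0.70. In that list 1 gene in WT and 3 in KO were 2-fold higher, among them Nqo1, a quinone reductase (1.40 and 1.68).

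Among 35 other genes of the ATF4 and amino acid response, day 35 showed no common shift. In WT 1 was 2-fold higher and 1 lower, with a median of -0.24, and in KO 2 were higher and none lower, with a median of 0.05. Atf3, a stress-induced repressor, was 2-fold higher in both (1.77 and 1.81). Between genotypes 1 of the 35 was 2-fold higher in KO at day 25, the transcription factor gene Jdp2 (1.13), against 2.67% of all genes. At day 35 there were 2, the arginine transporter gene Slc7a3 (3.64) and Cth (1.07), an enzyme of cysteine synthesis, against 10.3%. The part of the pluripotent-like cells in these day 35 values was not tested. Of 21 further sensors, eIF2 kinases and regulators with enough UMIs, 1 was 2-fold higher with day in WT, Casp12 at 1.07, and none in KO. No gene of the mitochondrial unfolded protein response and 1 of 9 p53 targets, Trp53inp1 (1.14 in WT and 1.39 in KO), were 2-fold higher.

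Most listed genes that respond to the handling of cells moved with the same contrast. A list of 12 dissociation and heat shock genes summed to 6272 and 6944 CPM at day 25 in WT and KO and to 9645 and 11112 at day 35. In WT 7 of the 12 and in KO 6 were 2-fold higher at day 35, against 7.96% and 13% of all genes, with medians of 1.06 and 1.03. Among them were Hspa1a (1.96 and 2.01) and Fosb (1.90 and 1.63). All 12 were above 0 in KO and 10 in WT, where Hspa8 (-0.51) and Hsp90aa1 (-0.22) were lower. The mitochondrial share of UMIs in kept cells was 2.98% and 2.52% at day 25 and 4.81% and 3.72% at day 35. The part of handling, cell quality and depth in the higher stress gene levels of day 35 was not tested. With 2 other ways of scaling the libraries, Dnajb9, Sdf2l1 and Gdf15 were no longer 2-fold higher in KO, and with 1 of them Ero1l was no longer so in WT.

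A whole-library sum mixes the level in each cell type with the makeup of the library, so the genes were also summed within cell types. A cell was assigned to the class whose fixed marker genes it carried most strongly, with at least 3 markers detected. This placed 43.0% and 43.7% of cells at day 25 and 38.8% and 47.6% at day 35 in WT and KO. The rest stayed ungated. Summed over the ungated cells, 9 members in WT and 7 in KO at day 35 were higher than in any gate, among them Hspa5, at 1740 CPM in WT and 1929 in KO. At day 25 such members were 8 in WT and 4 in KO. They included Slc7a11 and Ero1l in every library but KO at day 35. Ddit3 was among them in every library but KO at day 25, and Dnajb9 in WT on both days. No gene of the 35 is a marker. With at least 30 cells on both days, 7 gates could be compared in WT and 9 in KO.

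For a core of genes the higher level at day 35 was found across the gates. Hspa5, Dnajb9, Ppp1r15a, Ero1l and Herpud1 had a log2 ratio above 0 for day 35 over day 25 in all 7 WT gates and all 9 KO gates. Nupr1 did so in 7 of 7 and 8 of 9, while Atf4 was below 0 in every one of the 16. Ddit3 was above 0 in 7 of 7 WT gates but in 6 of 9 KO gates, and its median over gates was 1.39 and 0.40. Of the amino acid genes, Psat1 was above 0 in 1 of 7 WT and 1 of 9 KO gates, and Phgdh in 0 of 7 and 1 of 9. Asns was above 0 in 2 of 7 WT but 8 of 9 KO gates, and Slc7a11 in 5 of 5 and 5 of 8 gates with enough UMIs.

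Over all members tested in a gate, the median log2 ratio of day was above that of all genes in the same gate in 6 of 7 WT and 8 of 9 KO gates. In WT it ran from -0.01 in otoconial epithelium-like cells, where that of all genes was 0.02, to 1.03 in myogenic progenitor-like cells, from 68 cells at day 35 and 116 at day 25. In KO it ran from 0.05 in otoconial-like to 0.66 in myogenic progenitor-like cells. The KO gate not above all genes was the keratinocyte-like cells, with medians of 0.096 for the members and 0.101 for all genes.

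**Figure D3:**
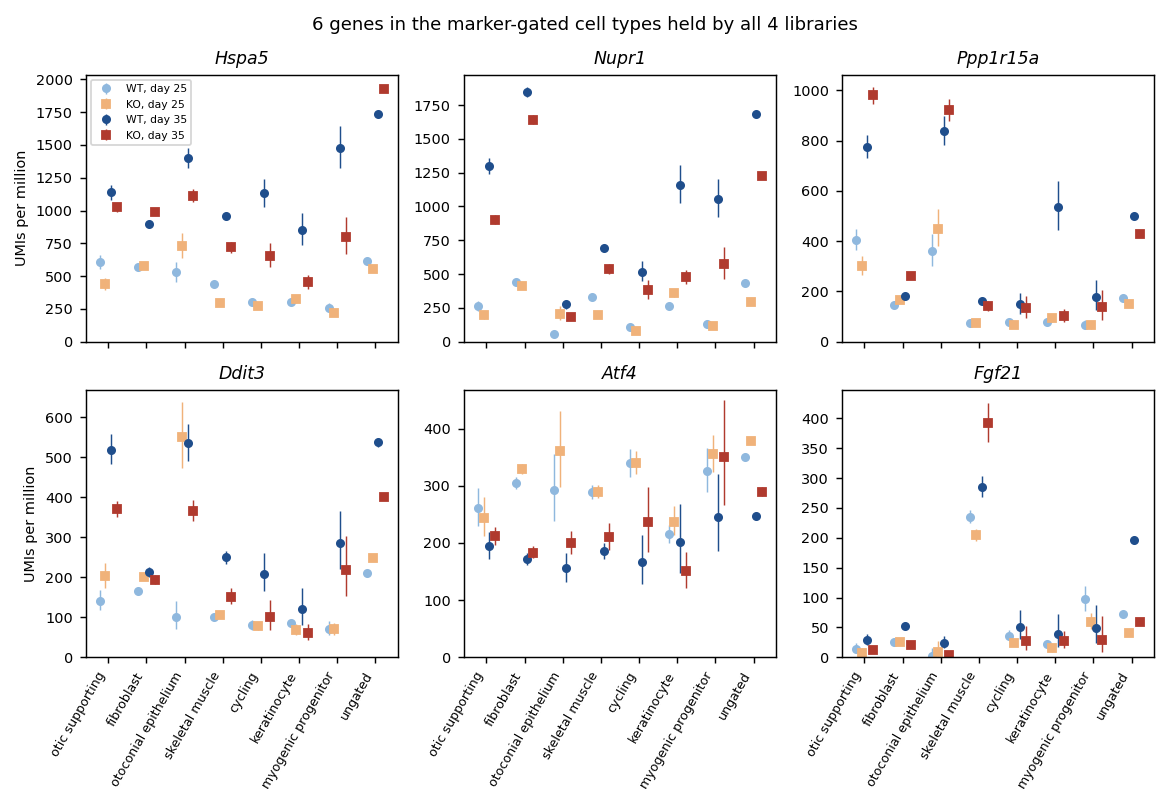
Levels of 6 genes, in CPM with exact 95% counting intervals, in the 7 marker-gated cell types with at least 30 cells in all 4 libraries and in the ungated cells. Hspa5 and Nupr1 are higher at day 35 in nearly every gate, Ppp1r15a is highest in the otic gates, and Fgf21 is highest in skeletal muscle-like cells.

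Each gene had its own place among the gates, and the highest and lowest named below leave out the ungated cells. Ppp1r15a was highest in the inner ear epithelium: at day 35 it reached 839 CPM in WT otoconial epithelium-like cells and 981 in KO otic supporting-like cells, against 161 and 140 in skeletal muscle-like cells of WT and KO. At day 25 the highest gates were otic too, at 403 in WT supporting-like and 449.5 in KO otoconial-like cells. Its lowest gate at day 35 was the cycling cells in WT (148) and the pluripotent-like cells in KO (28.8). Ddit3 was likewise highest in otic gates at day 35, at 536 in WT otoconial-like and 371 in KO supporting-like cells. At day 25 its highest gate in KO was otoconial-like, at 551 (473 to 638) from 31 cells, where the WT cells of that gate had 102.

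Hspa5 was highest at day 25 in otic gates (606 in WT supporting-like, 727 in KO otoconial-like cells) and lowest in myogenic progenitor-like cells (258 and 220). At day 35 the progenitors were the highest gate in WT, at 1477 (1322 to 1645), and adipocyte-like cells in KO, at 1148. The lowest were hair cell-like cells in WT (629) and pluripotent-like cells in KO (368). Dnajb9 reached 222 in WT supporting-like and 175 in KO otoconial-like cells at day 35. Sdf2l1 was highest in otoconial-like cells in 3 libraries (160 and 119 in WT at day 25 and day 35, 181 in KO at day 35) and in immune-like cells of KO at day 25 (178). The otoconial epithelium secretes the protein matrix of the ear stones.

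Nupr1 at day 35 was highest in fibroblast-like cells, at 1849 in WT and 1642 in KO, and lowest in otoconial-like cells of WT (275) and pluripotent-like cells of KO (127). Among the gates, Slc7a11 was highest in fibroblast-like cells of all 4 libraries, at 44.2 and 45.8 at day 25 and at 130 and 161 at day 35. The ungated cells lay higher still in every library but KO at day 35, and this held for Ero1l too. Ero1l was highest in keratinocyte-like cells at day 25 (468 and 403), in fibroblast-like cells of WT at day 35 (749), and in the 73 adipocyte-like cells of KO at day 35 (1796). Atf5 was highest in fibroblast-like cells of WT on both days (137 and 68.9), in adipocyte-like cells of KO at day 25 (160) and in myogenic progenitor-like cells of KO at day 35 (83.0).

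The enzymes of serine synthesis were highest in cycling and astrocyte-like cells. Psat1 was highest in cycling cells of all 4 libraries, at 267 and 250.3 at day 25 and at 304 and 236 at day 35, and lowest in otoconial-like cells of all 4, between 18.3 and 49.3. Phgdh was highest in astrocyte-like cells wherever that gate held at least 30 cells, at 590 (WT) and 735 (KO) at day 25 and at 334 in KO at day 35. In WT at day 35, with 10 such cells, the highest gate was the cycling cells, at 177. Atf4 varied least over the gates of day 25 among the 35 genes, with its highest gate 1.83-fold above its lowest in WT at day 25 and 1.96-fold in KO.

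Between genotypes at day 35, 7 gates could be compared. Ddit3, Nupr1 and Dnajb9 were below 0 for KO over WT in all 7, with medians of -0.55, -0.52 and -0.48. Hspa5 was above 0 in 1 of 7, the fibroblast-like cells, with a median of -0.42, although its whole-library ratio was -0.12. Phgdh was above 0 in 7 of 7, with a median of 0.29. The median of all members tested ran from -0.30 in keratinocyte-like to 0.14 in otoconial-like cells, and in 1 of the 7 gates, the otoconial-like cells, it was above that of all genes. There were 47 (WT) and 28 (KO) hair cell-like cells on the later day, and the gate was not compared.

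Of the 2 hormones, Gdf15 was at 7.46 and 6.94 CPM at day 25 in WT and KO and at 21.6 and 15.3 at day 35. Both day 35 libraries were higher, by log2 ratios of 1.53 and 1.14. Its highest gates at day 35 were myogenic progenitor-like cells in WT (35.8, from 8 UMIs) and skeletal muscle-like cells in KO (33.5). Fgf21 was at 72.7 and 49.4 at day 25 in WT and KO, and at 161 (WT) and 48.2 (KO) at day 35. The WT library of day 35 stood above the other 3, which gave a log2 ratio of day of 1.15 (1.09 to 1.20) in WT and -0.04 (-0.12 to 0.04) in KO, and a ratio of KO over WT of -0.56 at day 25 and -1.74 (-1.82 to -1.66) at day 35. Without the pluripotent-like cells the last ratio was -1.55, and that of day in KO 0.16 (0.08 to 0.24).

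The promoters of Fgf21 and of 3 genes that were found with it in the same cells carry the ATF4 element, and they are printed to show it. Capitals mark the composite element of C/EBP and ATF factors, searched as TGATGNAA on both strands.
Fgf21 (chr7:45615441-45615740, minus strand): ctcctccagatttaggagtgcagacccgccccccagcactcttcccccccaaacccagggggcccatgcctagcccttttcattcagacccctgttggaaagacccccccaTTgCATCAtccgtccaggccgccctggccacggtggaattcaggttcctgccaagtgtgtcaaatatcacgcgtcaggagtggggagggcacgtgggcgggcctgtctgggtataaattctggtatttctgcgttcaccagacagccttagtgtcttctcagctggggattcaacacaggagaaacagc
Asns (chr6:7693160-7693459, minus strand): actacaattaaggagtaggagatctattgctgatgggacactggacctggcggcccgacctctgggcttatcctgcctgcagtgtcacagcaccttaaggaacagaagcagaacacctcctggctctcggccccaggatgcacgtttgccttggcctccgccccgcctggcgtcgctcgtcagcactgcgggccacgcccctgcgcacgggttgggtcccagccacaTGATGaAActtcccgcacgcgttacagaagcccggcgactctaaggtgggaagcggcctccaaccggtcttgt
Trib3 (chr2:152344011-152344310, minus strand): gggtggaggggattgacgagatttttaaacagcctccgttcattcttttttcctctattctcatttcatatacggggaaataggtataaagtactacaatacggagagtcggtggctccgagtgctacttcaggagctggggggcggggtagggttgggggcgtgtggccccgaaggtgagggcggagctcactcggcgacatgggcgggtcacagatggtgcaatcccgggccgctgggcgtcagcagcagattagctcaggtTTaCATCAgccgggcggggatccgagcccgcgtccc
Chac1 (chr2:119350992-119351291, plus strand): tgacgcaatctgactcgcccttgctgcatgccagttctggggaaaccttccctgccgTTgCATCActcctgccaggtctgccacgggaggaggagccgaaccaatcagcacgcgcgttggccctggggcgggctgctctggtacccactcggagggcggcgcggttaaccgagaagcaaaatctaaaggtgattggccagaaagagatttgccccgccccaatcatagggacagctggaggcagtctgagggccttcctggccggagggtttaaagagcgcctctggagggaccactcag
The match began 139 bases before the start in Fgf21, 23 before it in Asns, 193 before it in Chac1 and 14 after it in Trib3. The element was found in the promoters of 7 members, these 4 and Herpud1, Nupr1 and Slc7a11, which is 20% of the members' promoters, and in 3.97% of all promoters. Gdf15, which was also higher in the cells with Fgf21, had no match to the element in its promoters. No match of one element overlapped a match of another in any member.

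Fgf21 was detected in a minority of cells. At least 1 Fgf21 UMI was found in 16.8% and 12.4% of cells at day 25 and in 15.6% and 8.98% at day 35, in WT and KO. With each cell thinned to 2000 UMIs the share was 7.98% (WT) and 5.33% (KO) at day 25, then 12.0% (WT) and 5.01% (KO), leaving out 707 shallower WT cells of day 35. WT at day 35 was thus the highest library at equal depth, and the KO libraries of both days were close to each other. Of the pluripotent-like cells of KO at day 35, 3.85% held an Fgf21 UMI, at a median depth of 14120 UMIs and a level of 2.76 CPM. Whether these cells make Fgf21 was not tested, and their level is no background value for the other libraries. Outside the skeletal muscle-like gate, the muscle markers summed to 1048 CPM in WT and 300 in KO at day 35.

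Skeletal muscle-like cells had the highest Fgf21 of any gate in all 4 libraries, at 235 (WT) and 205 (KO) CPM at day 25, and at 286 in WT and 392 in KO at day 35. Within this gate KO was above WT at day 35, by a log2 ratio of 0.46 (0.31 to 0.60), opposite to the whole libraries. Of the 574 Fgf21 UMIs in KO muscle-like cells at day 35, 118 came from 1 cell, and without the muscle-like cell with the most Fgf21 UMIs in each library, 46 in WT, the levels were 274 (258 to 291) in WT and 315 (286 to 345) in KO. The share of muscle-like cells with an Fgf21 UMI at 2000 UMIs was 22.1% in WT and 21.6% in KO. Of the cells kept at day 35, 9.28% (WT) and 3.17% (KO) were muscle-like, and on the earlier day 7.17% of the WT cells and 783 of the 11190 KO cells were.

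Outside muscle the Fgf21 CPM of the genotypes differed the other way. Ungated cells held 69.3% of the Fgf21 UMIs of WT and 54.7% of those of KO at day 35, at levels of 197 and 59.4. Fibroblast-like cells were at 52.5 in WT and 20.7 in KO, otic supporting-like cells at 29.5 and 11.6, and otoconial-like cells at 23.4 and 3.48, the last from 23 and 7 UMIs. The log2 ratios of KO over WT in these 3 gates were -1.34, -1.35 and -2.75, and 1 of 6 gates with enough UMIs was above 0, the muscle-like cells. Muscle markers in the same 3 gates were also lower in KO: 1058 CPM in WT and 322 in KO, 823 and 209, and 1485 and 197. Per 1000 muscle marker UMIs, there were 49.6 (WT) and 64.4 (KO) Fgf21 UMIs, 35.8 and 55.6, and 15.8 and 17.7. In the ungated cells there were 193 and 176, with muscle markers at 1017 and 338 CPM. The skeletal muscle-like cells themselves had 7.30 (WT) and 9.81 (KO) Fgf21 UMIs per 1000 muscle marker UMIs at day 35, fewer than each of these groups. At day 25 the ungated cells were at 72.9 in WT and 40.4 in KO.

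Fgf21 was also summed over cells binned by their muscle marker level. In cells without any UMI of the muscle markers, Fgf21 was at 50.7 and 28.5 CPM at day 25 and at 130 and 40.5 at day 35 in WT and KO. In cells with muscle markers at 8000 CPM or more it was at 232 and 200 (WT and KO, day 25) and at 276 and 380 (WT and KO, day 35). WT at day 35 was above the other libraries in cells without a muscle marker UMI, and KO at day 35 was the highest in the bin with the most. The part of muscle RNA outside its own cells in these levels was not tested.

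**Figure D4:**
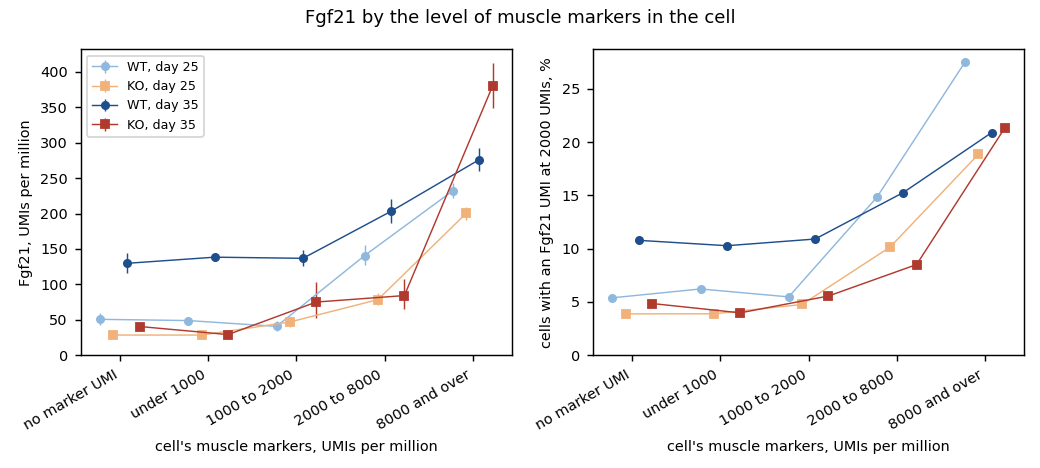
Fgf21 in cells binned by their summed muscle markers, from no marker UMI to 8000 CPM and over, as CPM with exact 95% counting intervals (left) and as the percentage of cells with an Fgf21 UMI after thinning to 2000 UMIs (right). Lines join the bins of 1 library. WT at day 35 lies at 130 or above in every bin, and KO at day 35 lies above it in the last bin and below it in the others.

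Cells with an Fgf21 UMI at day 35 also held more of several other ATF4 target RNAs. There were 239 such muscle-like and 1037 such other cells in WT, and 79 and 525 in KO. They were deeper, with a median of 3972 UMIs in WT and 4970 in KO against 2987 and 4358 in the cells without. Asns was at 301 CPM in muscle-like cells of WT with Fgf21 and 103 in those without, at 216 and 73.4 in other WT cells, at 353 and 128 in muscle-like KO cells, and at 207 and 108 in other KO cells. The 4 log2 ratios were 1.55, 1.56, 1.47 and 0.93 in that order. Trib3 gave 1.98, 1.55, 1.45 and 1.06, and Chac1 1.96, 2.27, 3.28 and 1.71, the third from 27 UMIs in the cells with Fgf21. Each of these 3 genes was higher in the cells with Fgf21 in both genotypes, in muscle-like and in other cells.

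Gdf15, the other hormone, was higher as well, by 1.03 and 0.96 in muscle-like and other cells of WT and by 2.49 and 1.53 in those of KO. Atf4 itself was higher by 0.51 to 0.66 in the 4 comparisons. Hspa5 was higher by 0.35 in muscle-like and 0.74 in other WT cells and by 0.88 in other KO cells, but not in muscle-like KO cells, at -0.25 (-0.44 to -0.07). Slc7a11 was lower in the other cells with Fgf21, at -1.36 in WT and -1.12 in KO, while being an ATF4 target with 2 matches to the element.

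Of the members other than Fgf21, 4 of 32 tested were 2-fold higher in muscle-like cells of WT with Fgf21, against 1.15% of all genes, and 3 of 34 in other WT cells, against 2.14%. In KO the counts were 6 of 30, against 2.29%, and 3 of 34, against 2.31%. In the same order 0, 1, 0 and 1 members were 2-fold lower (Slc7a11 each time), against 5.35%, 14.1%, 4.19% and 10.1% of all genes. Of the 35 other ATF4 genes, 34 of 34 tested in muscle-like and 31 of 35 in other WT cells were above 0, as were 28 of 30 and 34 of 35 in KO, with medians from 0.52 to 0.76. The 40 other endoplasmic reticulum genes had medians of 0.02, 0.17, -0.10 and 0.15 in that order, and all genes -0.06, -0.22, -0.04 and -0.14. The 6 other members with the composite element had medians of 1.05, 0.90, 1.45 (5 tested) and 0.79, and the 7 with the endoplasmic reticulum stress element -0.08, 0.29, -0.02 and 0.35. Matched members with neither element had medians of 0.34, 0.36, 0.37 and 0.25. Of these, 15 of 16, 14 of 18, 11 of 15 and 13 of 18 were above 0.

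At day 25 all 35 other ATF4 genes were above 0 in muscle-like cells with Fgf21 in both genotypes, with medians of 0.70 in WT and 0.79 in KO, and 34 of 35 in other cells, with medians of 0.50 and 0.47. The 40 other endoplasmic reticulum genes had medians of -0.01 and 0.11 in muscle-like and 0.12 and 0.06 in other cells, and all genes between -0.10 and -0.05. The other cells with Fgf21 at day 35 differed in makeup too. Against the cells without, their summed muscle markers were 1.32-fold (WT) and 1.47-fold (KO) higher, their neuron markers 2.72-fold and 3.14-fold higher, at 49.7 and 211 CPM, and their otoconial markers lower, at 0.348 and 0.461 of the level. The part of depth and cell makeup in these values was not tested.

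**Figure D5:**
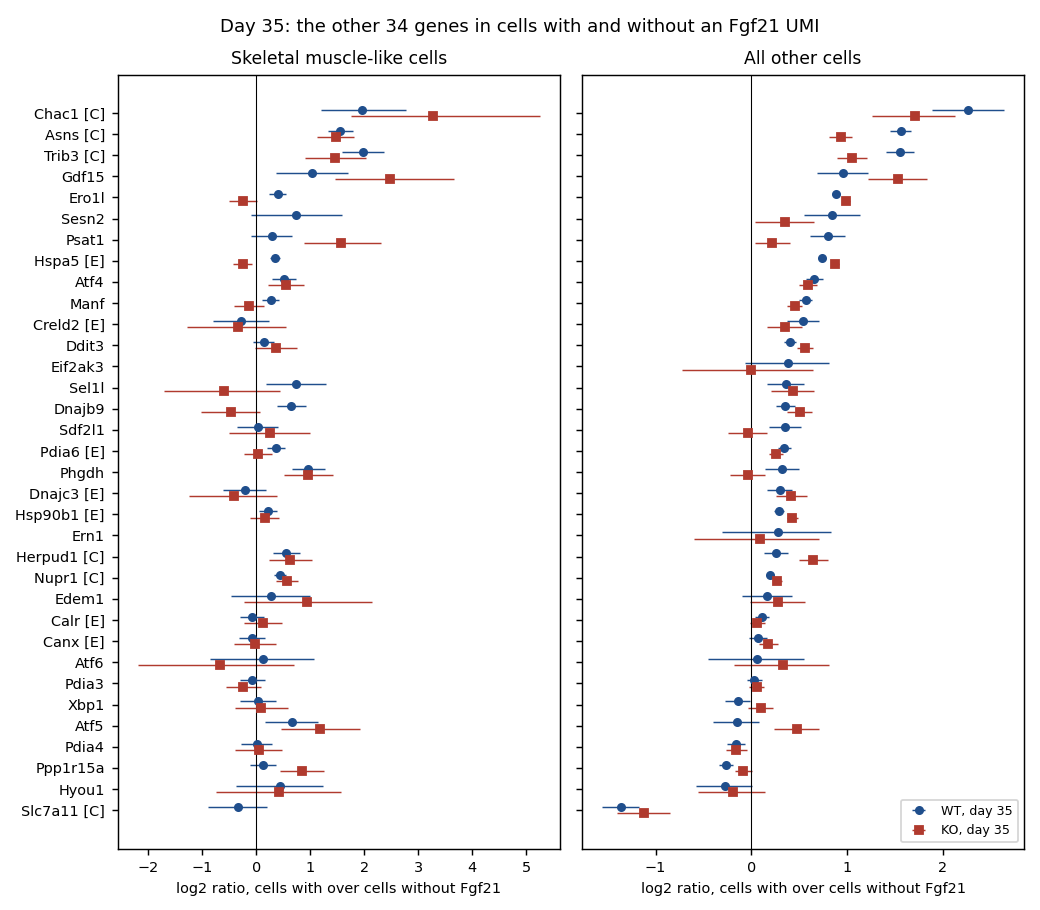
Log2 ratios of the other 34 genes between cells with and without an Fgf21 UMI at day 35, in skeletal muscle-like cells (left) and all other cells (right), with exact 95% counting intervals for genes with at least 20 UMIs. C marks genes with a composite element match and E those with an endoplasmic reticulum stress element match. Chac1, Asns and Trib3 lie at 0.93 or above in both genotypes and panels.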

How the data were processed

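For each library the authors deposited raw UMI counts as a matrix of genes by barcodes, with no scaling. Per the submitters' processing notes, build GRCm38 (mm10), bcl2fastq, Cell Ranger 2.1.0, R 3.5.1 and Seurat 2.3.1 were in use. How reads matching several genes or either strand were counted is not given in the sources used here. The labels' protocols describe TrypLE dissociation and droplet libraries with 3' counting.

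Counts were summed over kept cells, by library and by gate, and divided by all UMIs of the same cells (Python 3.11.15, numpy 2.4.6, scipy 1.17.1, pandas 2.3.3). Levels have exact Poisson, shares exact Clopper-Pearson and ratios exact conditional binomial intervals, all at the 95% level. Only the ratio intervals were checked, on simulated Poisson counts, the model they assume. Spread beyond counting error was no part of that check. With 1 library per group no test was made. A gene counted as tested, here only set against 2-fold, with at least 20 UMIs over both sides. Gates used 18 marker lists, and a cell needed at least 3 markers and a summed marker level over a floor of 1000 to 8000 CPM, set per class after the data were examined. No doublets were called, and leaving out the 5% of cells with the most UMIs was an alternative. The members, lists and markers were chosen with earlier results of these data known. Levels in every library are given for members that were 2-fold apart in some comparison, and for Fgf21, Hspa5, Ddit3 and Atf4. Within gates the highest and lowest gates of these were looked up. Promoters came from RefSeq.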

Additional observations from a re-analysis of the deposited data

Results flagged for a closer look

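Opposite directions under the same contrast were met 6 times among the 35 genes. Counted were pairs with both counting intervals away from 0 and ratios at least 1.5-fold apart. Closer pairs of opposite direction, such as Herpud1 for KO over WT, were left out. None of these differences was tested, since each group is 1 library. For KO over WT, Ddit3 had a log2 ratio of 0.29 at day 25 and -0.58 at day 35, Asns -0.52 and 0.16, Psat1 -0.16 and 0.68, and Phgdh -0.22 and 0.42. Without the pluripotent-like cells the day 35 values were -0.39 for Ddit3, -0.10 for Asns, 0.18 for Psat1 and 0.28 for Phgdh. For day 35 over day 25, Asns had -0.23 in WT and 0.46 in KO, and Sesn2 -0.45 in WT and 0.15 in KO. Without the pluripotent-like cells the KO values were 0.20 for Asns and 0.096 (-0.02 to 0.21) for Sesn2, an interval that holds 0, and Sesn2 in KO was also below 0 under both other scalings. Asns for KO over WT at day 35 was below 0 with median-ratio size factors too. The opposite directions of Sesn2 by day and of Asns by genotype thus did not hold under these alternatives.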

How the results depend on the processing

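Of 136 recomputed counts, medians and Fgf21 shares, 120 kept their size within the limits set. At a fold of 1.5 in place of 2, KO over WT gave 0 members higher and 1 lower at day 25, against 5.65% and 11% of all genes, and 1 higher and 3 lower at day 35, against 21.5% and 6.08%. Day 35 over day 25 gave 16 higher and 4 lower in WT, against 15.8% and 27%, and 14 higher and 2 lower in KO, against 23.9% and 14.9%. The count of 8 higher in KO was 5 with totals without mitochondrial and ribosomal protein genes, 5 with median-ratio size factors and 5 as a median over gates, where the count lower was 0. The median of the members for KO over WT at day 35 went from 0.09 to -0.13 with median-ratio size factors, and 12 members changed sign. Each other pairing of a comparison and a scaling changed the sign of 0 to 3 members. Without pluripotent-like cells 5 members changed sign for KO over WT at day 35, 3 of them (Hspa5, Asns and Ppp1r15a) with both counting intervals away from 0. The share of cells with Fgf21 at day 35 was 23.7% in WT and 10.3% in KO with at least 1000 genes and at most 5% mitochondrial UMIs, 12.0% and 5.01% at 2000 UMIs, and 14.8% in WT without the 5% of cells with the most UMIs. The cause was not tested. Of the other recomputed values, 146 stayed within the limits set and 36 moved. Requiring 1 more marker kept all 48 gate levels compared within 1.5-fold, no cell filter kept 48, and leaving out the deepest cells kept 46. In the same order 46, 42 and 32 of the 48 stayed within their counting intervals. The largest change was 2.04-fold, without the deepest cells. Chosen after seeing the data were the alternatives without pluripotent-like cells, without the top Fgf21 cell and with at least 3 Fgf21 UMIs. Without its top cell KO at day 35 had Fgf21 at 45.2 CPM. No paired analysis was possible because each group is 1 library. Counting error covers the depth only, and genes such as Ern1 and Chac1 had under 800 UMIs a library.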

Other observations

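In the barcodes that the mitochondrial limit removed, levels were taken over UMIs that are not mitochondrial. In WT at day 35, Hspa5 was at 1046 CPM in the 1081 removed barcodes and 1489 in the kept cells, Nupr1 at 948 and 1567, Ddit3 at 318 and 450.0, and Fgf21 at 65.9 and 169. In KO at day 35, with 348 removed barcodes, Hspa5 was at 755 and 1351, Nupr1 at 447 and 1022, Ddit3 at 193 and 298, and Fgf21 at 51.7 and 50.1. At day 35 these stress genes were thus lower in the removed barcodes of both genotypes, except Fgf21 in KO. At day 25, with 195 WT barcodes removed, Hspa5 was at 568 and 545 in WT, and Fgf21 at 25.6 and 74.9.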
